A study of Mus musculus with 6 samples.

Results

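The genes described here encode the Fos subunits (Fos, Fosb, Fosl1, Fosl2) and Jun subunits (Jun, Junb, Jund) of the transcription factor AP-1, together with Egr1, Ier3 and Myc, which are switched on by growth factors, stress and inflammatory signals in the same early wave. They were taken by gene name, and each of the 10 names matched 1 row of the 54532 genes in the expression table. Transcript levels were measured by RNA sequencing in cultured mouse aortic smooth muscle cells (MASMCs), the muscle cells of the arterial wall. According to the study the cells were exposed to angiotensin II for days, so the levels are not those of the first minutes after the hormone. The 3 control libraries came from wild-type cells given an adenoviral vector with a control plasmid (Ad-Con). The other 3 libraries came from cells labelled with the genotype of pyruvate dehydrogenase kinase 4 overexpression, given a vector with the PDK4 plasmid (Ad-PDK4). PDK4 is a mitochondrial kinase that holds back pyruvate oxidation. Both groups thus carried an adenovirus and received the same hormone, and cells without either were not analysed here.

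AP-1 is a dimer. Jun proteins pair with themselves or with Fos proteins, whereas Fos proteins bind DNA only with a partner, and the subunits differ in how strongly they activate target genes and how long they last in the cell. Fos, Fosb and Egr1 messages appear and vanish quickly after a stimulus, while Fosl1 and Fosl2 messages come later and persist. In vascular smooth muscle, AP-1, Egr1 and MYC are known for their part in the shift from a contractile to a proliferating or inflammatory state.

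Levels are in FPKM, a count of sequenced fragments per gene corrected for gene length and depth. The 6 libraries held 17588942 to 21861872 reads on genes, of which 0.0624% to 0.0768% fell on the 10 genes. The Pdk4 transcript was at 9.50, 10.4 and 10.1 FPKM under the Ad-Con label and at 7.67, 7.40 and 7.38 FPKM under Ad-PDK4, so it was lower under the overexpression label (log2 fold change -0.42, adjusted p = 0.0011 in limma), and every direction below is a difference between labels. The sources used here do not say if fragments of the plasmid insert were counted under Pdk4. By the series description, PDK4 expression in these cells was checked separately by RT-qPCR. Of 11 smooth muscle markers 5 were tested, with 1 higher and 2 lower, and the sum over the 11 was 172.2 to 173.0 FPKM under Ad-Con and 134.5 to 144.8 FPKM under Ad-PDK4. Acta2 went from 76.9 to 78.7 FPKM under Ad-Con to 33.5 to 38.0 FPKM under Ad-PDK4 (it fell by 1.11 on the log2 scale), and the defining contractile gene Myh11 did not exceed 0.072 FPKM and its activator Myocd did not exceed 0.043 FPKM. The 6 fibroblast markers summed to 1430 to 1555 FPKM under Ad-Con and 738.0 to 805.4 FPKM under Ad-PDK4, with 4 lower and 1 higher. Of 8 macrophage markers only Cd68 was tested and fell by 1.74 on the log2 scale, while Ptprc, C1qa, C1qb and Tyrobp had 0 reads in all libraries. The sum of those 8 markers went from 13.3 to 16.4 FPKM under Ad-Con to 3.69 to 5.50 FPKM under Ad-PDK4. As 7 of the 8 were too low to be tested, this sum over the 6 libraries rests mainly on Cd68. Of 6 endothelial markers only Kdr was tested, with no call, Tie1 had 0 reads, and their sum was 0.617 to 0.798 FPKM against 0.885 to 1.18 FPKM. The part of these shifts in the results below was not tested, and in a bulk library fewer cells of a type cannot be told apart from less RNA per cell.

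Promoter stretches are shown first, with matches to short patterns in capitals. The patterns in capitals are those of factors of this family or of inflammatory signals, and no match was tested as a control site. The RefSeq promoter sequences used here (GRCm38.p6) covered 7 of the 10 genes, namely Fos, Fosb, Fosl2, Jun, Junb, Jund and Ier3. Fosl1, Egr1 and Myc were missing from that set and were not searched. In the others, the 250 bases before each start were searched on both strands. The first stretch is the Jun promoter on the minus strand, chr4:95052223-95052472, with its CRE-type site in capitals, the kind of element through which Jun is known to be driven by Jun and ATF dimers.
Jun: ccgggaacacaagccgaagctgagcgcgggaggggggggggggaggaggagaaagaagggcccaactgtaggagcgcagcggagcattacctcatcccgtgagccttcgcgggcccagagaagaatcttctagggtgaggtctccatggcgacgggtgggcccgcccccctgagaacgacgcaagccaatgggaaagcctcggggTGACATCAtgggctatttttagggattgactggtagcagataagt
The next stretches are the Fos promoter, chr12:85473640-85473889 on the plus strand, and the Ier3 promoter, chr17:35821463-35821683 on the plus strand, each with a kappaB site, the type of element bound by NF-kappaB, in capitals.
Fos: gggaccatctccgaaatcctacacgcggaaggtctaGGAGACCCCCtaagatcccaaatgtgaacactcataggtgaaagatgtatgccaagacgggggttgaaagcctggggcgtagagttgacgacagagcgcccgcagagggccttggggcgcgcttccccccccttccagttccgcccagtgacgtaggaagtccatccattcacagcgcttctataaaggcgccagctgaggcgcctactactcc
Ier3: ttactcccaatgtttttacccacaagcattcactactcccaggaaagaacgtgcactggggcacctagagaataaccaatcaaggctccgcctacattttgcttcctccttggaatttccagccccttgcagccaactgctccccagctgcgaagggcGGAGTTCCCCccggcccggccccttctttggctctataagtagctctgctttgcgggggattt
The last are short windows of 29 bases around the Egr site, to which Egr1 and its relatives bind, from Fosb (chr7:19310077-19310105, minus strand) and Fosl2 (chr5:32136383-32136411, plus strand), again in capitals.
Fosb: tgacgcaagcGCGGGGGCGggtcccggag
Fosl2: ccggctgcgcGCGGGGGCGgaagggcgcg
The Jun site TGACATCA began 45 bases before the start. The motif TGACNTCA was present in 1 of the 7 promoters and in 7.49% of all 32851 RefSeq promoters of that length. The kappaB site was present in 4 of 7 promoters (Fos, Fosb, Fosl2 and Ier3) and in 7.25% of all, and in Fosl2 a pair of its matches overlapped. The Egr motif GCGNGGGCG was present in 2 of 7 and in 4.70% of all, beginning 50 bases before the start in Fosb and 79 in Fosl2. Fosl2 also held the interferon-stimulated response element, present in 2.98% of all promoters. The AP-1 site TGANTCA, the E-box CACGTG of MYC and MAX, the GAS element TTCNNNGAA and the CArG box of serum response factor were in 0 of these 7 windows, against 6.75%, 6.02%, 7.02% and 1.47% of all promoters. These are matches of letters in a short window, and sites outside it were not searched. The shares over all promoters were not matched for base composition, and no enrichment was tested. For Jund the RefSeq start lay 1210 bases upstream of the start annotated with the expression values. For Fosl2 it lay 671 bases downstream of that start. The Fosl2 window and its matches therefore lay inside the gene as annotated with the expression values.

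Of the 10 genes 9 were tested, since Fosb lay under the limit of a mean of 0.5 FPKM. At a limma adjusted p below 0.05, 5 were higher in the libraries labelled Ad-PDK4 (Fosl1, Fosl2, Junb, Ier3 and Myc), where 21.8% of the 13423 genes tested were higher. Egr1 alone was lower, where 20.8% of all genes were lower. Fos, Jun and Jund did not pass. The groups did not overlap for the same 6 genes, beside 54.3% of all genes tested, made up of 27.8% with higher and 26.5% with lower values under Ad-PDK4. Only Egr1 also changed by a factor of at least 2, a limit that 2.68% of all genes passed downward and 3.95% upward.

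**Figure D1:**
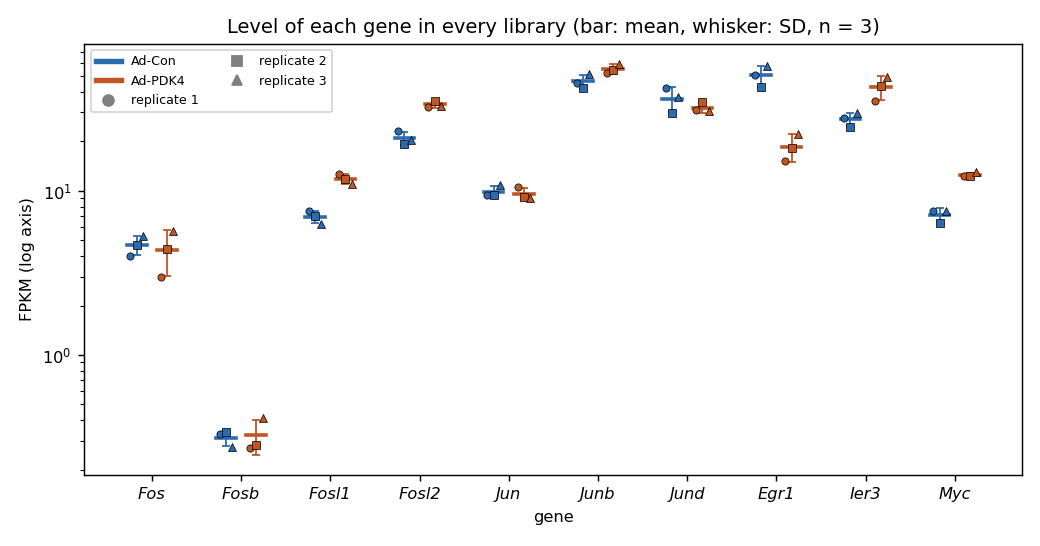
FPKM on a log axis for each of the 10 genes in the 3 libraries labelled Ad-Con (blue) and the 3 labelled Ad-PDK4 (orange), with bars for the mean and whiskers for the SD. Egr1 is lower in all 3 Ad-PDK4 libraries (15.1 to 22.3 against 43.0 to 57.9 FPKM), whereas the points of Fos, Fosb, Jun and Jund overlap between the groups.

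Among the Fos subunits, Fosl1 and Fosl2 rose, Fos was not called, and Fosb was not tested in the main fit. Fosl2 (ENSMUSG00000029135, chromosome 5, 32135801 to 32157842, GRCm38), the main Fos subunit in these cells, was at 23.1, 19.3 and 20.3 FPKM under the Ad-Con label and at 32.6, 35.4 and 32.7 FPKM under Ad-PDK4. Every Ad-PDK4 library lay above every Ad-Con library. Its mean went from 20.9 ± 1.96 to 33.6 ± 1.57 FPKM (SD, n = 3), a factor of 1.61, with a log2 fold change of 0.69 (standard error 0.08, adjusted p = 0.00025 in limma). These values rested on 3276 to 7002 reads per library.

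Fosl1 (ENSMUSG00000024912, chromosome 19, 5447703 to 5455945), which encodes FRA1, a subunit known from migrating and RAS-transformed cells, had 7.51, 7.01 and 6.30 FPKM under the Ad-Con label and 12.6, 11.8 and 10.95 FPKM under Ad-PDK4. The groups were again separate, with 6.94 ± 0.608 against 11.8 ± 0.833 FPKM (SD, n = 3) and a factor of 1.70. The log2 fold change was 0.76 (standard error 0.08, adjusted p = 0.00028 in limma). In GENCODE M21 the gene shares 1163 exonic bases with Ccdc85b on the opposite strand, and without the strand setting of the counting, reads there could be assigned to neither gene or to the wrong one. The expression table used a length of 1707 bases for Fosl1, whereas its M21 exons cover 2033 bases. Ccdc85b itself moved the other way, from 71.0 to 74.4 FPKM under Ad-Con to 58.3 to 64.6 FPKM under Ad-PDK4 (log2 fold change -0.23, adjusted p = 0.011 in limma).

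Fos (ENSMUSG00000021250, chromosome 12, 85473890 to 85477273), the founding member, was at 4.03, 4.70 and 5.28 FPKM in the Ad-Con libraries and at 2.99, 4.45 and 5.72 FPKM in the Ad-PDK4 libraries. The lowest and the highest values were both from the Ad-PDK4 label. The means were 4.67 ± 0.623 and 4.38 ± 1.36 FPKM (SD, n = 3), and the log2 fold change was -0.13 (interval -0.68 to 0.42, adjusted p = 0.69 in limma). Without Ad-PDK4 replicate 1 it was 0.12. Between 128 and 297 reads per library lay behind these values. The upper end of the interval lies below the rises of Fosl1 and Fosl2.

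Fosb (ENSMUSG00000003545, chromosome 7, 19302696 to 19310051), a subunit known for its response to repeated stimulation, was the scarcest of the 10 genes. It had 0.331, 0.338 and 0.274 FPKM under Ad-Con and 0.273, 0.284 and 0.413 FPKM under Ad-PDK4, from 31 to 57 reads per library. The values of the groups overlapped. With no filter on low values its log2 fold change was 0.02 (interval -0.57 to 0.61, adjusted p = 0.97 in limma).

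Taken as a family, the summed Fos-subunit level was 32.8 ± 1.89 FPKM under Ad-Con and 50.1 ± 1.73 FPKM under Ad-PDK4, a factor of 1.53 with separate groups. An exact two-sided permutation test gave p = 0.1, the smallest that 3 against 3 libraries allow. Fosl2 made up 63.6% ± 2.26 and 67.0% ± 1.23 of the sum, and Fosl1 21.2% ± 1.43 and 23.6% ± 2.14, with overlap between the groups in both cases (exact permutation p = 0.2 each). The share of Fos was 14.3% ± 2.50 under Ad-Con and 8.73% ± 2.66 under Ad-PDK4, with a gap of less than 1 SD between the lowest Ad-Con library (11.54%) and the highest Ad-PDK4 library (11.47%). Fosb took 0.958% ± 0.114 and 0.646% ± 0.159. For Fos and Fosb the exact permutation p was 0.1. Without correction for length, as shares of reads, the difference of Fos shrank from -5.58 to -2.001 percentage points and that of Fosl1 from 2.43 to 0.41.

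**Figure D2:**
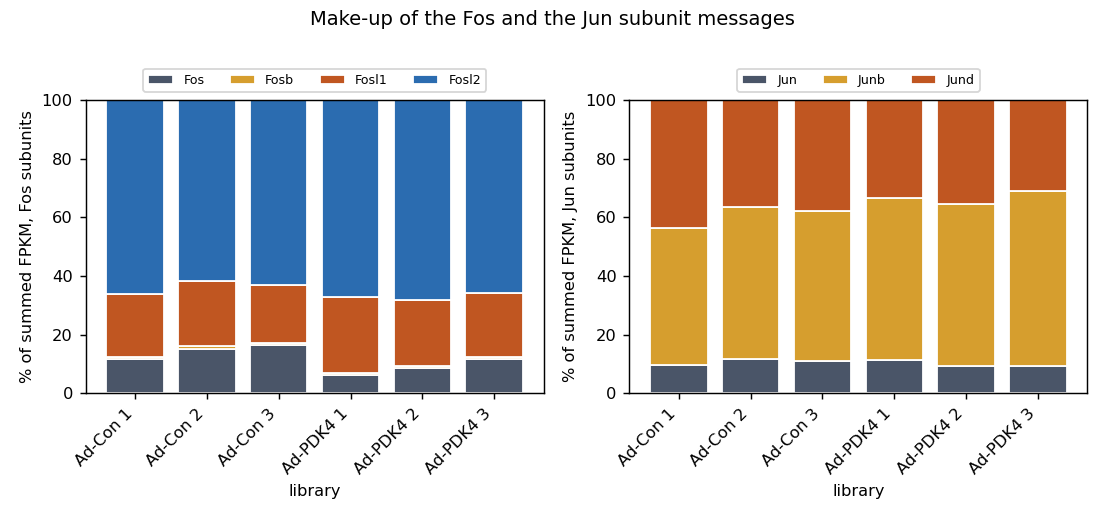
Stacked bars give each subunit's share in percent of the summed FPKM of the Fos subunits (left) and of the Jun subunits (right) in each of the 6 libraries. Fosl2 holds the largest part of the Fos sum in every library, and Junb takes 46.8% to 52.1% of the Jun sum under Ad-Con and 55.3% to 59.96% under Ad-PDK4.

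Among the Jun subunits only Junb passed the test, with a small difference. Junb (ENSMUSG00000052837, chromosome 8, 84974484 to 84978718), often a weaker activator than Jun that competes with it for partners, was at 45.4, 42.4 and 51.1 FPKM under Ad-Con and at 51.9, 54.2 and 59.6 FPKM under Ad-PDK4. The groups were separate by less than 1 FPKM. The means of 46.3 ± 4.40 and 55.2 ± 3.94 FPKM (SD, n = 3) gave a factor of 1.19 and a log2 fold change of 0.25 (standard error 0.08, adjusted p = 0.036 in limma). The call was lost in 7 of 15 alternative analyses, among them those without Ad-Con replicate 1 or 2 and those without Ad-PDK4 replicate 2 or 3, with adjusted p between 0.0044 and 0.11 over all 15. It shares 173 exonic bases with Prdx2 on the opposite strand, which moved the other way (120.6 to 122.7 against 72.5 to 77.0 FPKM).

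Jun (ENSMUSG00000052684, chromosome 4, 95049034 to 95052222), a gene of 1 exon and a strong activator, had 9.37, 9.39 and 10.8 FPKM in the Ad-Con libraries and 10.5, 9.17 and 9.06 FPKM in the Ad-PDK4 libraries. The groups overlapped, at 9.86 ± 0.826 and 9.58 ± 0.798 FPKM (SD, n = 3). The log2 fold change was -0.04 (adjusted p = 0.73 in limma) with an interval of -0.24 to 0.16, and 0.03 without Ad-Con replicate 3. Its antisense gene Junos, overlapping it by 232 bases, did not exceed 0.334 FPKM.

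Jund (ENSMUSG00000071076, chromosome 8, 70698949 to 70700616), also a gene of 1 exon and usually the constitutive member, was at 42.4, 29.6 and 37.4 FPKM under Ad-Con and at 31.1, 34.7 and 30.7 FPKM under Ad-PDK4. All Ad-PDK4 values lay inside the Ad-Con range. The means were 36.5 ± 6.42 and 32.2 ± 2.18 FPKM (SD, n = 3), with a log2 fold change of -0.17 (standard error 0.13, adjusted p = 0.33 in limma). The estimate depended on single control libraries. Without Ad-Con replicate 2 the log2 fold change was -0.31 and the limma adjusted p 0.026. Without Ad-Con replicate 1 these were -0.05 and 0.75. In 14 of 15 alternative analyses Jund was not called. The annotated antisense gene Gm11175 covers 877 bases of it and had 0 reads in all libraries.

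The summed Jun-subunit level was 92.7 ± 9.73 FPKM against 97.0 ± 3.10 FPKM (exact permutation p = 0.6, n = 3). Within it, the share of Junb was 50.1% ± 2.92 under Ad-Con and 56.9% ± 2.63 under Ad-PDK4, and that of Jund 39.2% ± 3.87 and 33.2% ± 2.22. Neither share overlapped between the groups, and both had the smallest possible exact permutation p of 0.1. Jun held 10.7% ± 0.962 and 9.90% ± 1.16 (exact permutation p = 0.4). In total the Jun messages therefore exceeded the Fos messages under both labels, 92.7 against 32.8 FPKM and 97.0 against 50.1 FPKM.

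Egr1 (ENSMUSG00000038418, chromosome 18, 34859823 to 34864984), a zinc-finger factor induced within minutes by serum and vessel injury, showed the largest difference of the 9 genes tested. It was at 50.5, 43.0 and 57.9 FPKM under the Ad-Con label and at 15.1, 18.3 and 22.3 FPKM under the Ad-PDK4 label. The highest Ad-PDK4 value was well under the lowest Ad-Con value. The mean fell from 50.5 ± 7.45 to 18.6 ± 3.59 FPKM (SD, n = 3), to 0.368 of the control level, with a log2 fold change of -1.45 (standard error 0.16, adjusted p = 0.00075 in limma). Each library had 1232 to 4709 reads on it, and over 15 alternative analyses the log2 value stayed between -1.59 and -1.31.

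Ier3 (ENSMUSG00000003541, chromosome 17, 35821684 to 35822923), an early-response gene that acts in cell survival and is known as an NF-kappaB target, went the other way. It had 27.6, 24.6 and 29.7 FPKM under Ad-Con and 35.1, 43.7 and 49.4 FPKM under Ad-PDK4. The groups were separate, but the Ad-PDK4 libraries were spread more widely, with 27.3 ± 2.56 against 42.7 ± 7.19 FPKM (SD, n = 3). The factor was 1.56 and the log2 fold change 0.63 (standard error 0.13, adjusted p = 0.0072 in limma).

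Myc (ENSMUSG00000022346, chromosome 15, 61985391 to 61990374), the growth regulator that binds E-boxes with MAX, was at 7.49, 6.35 and 7.55 FPKM in the Ad-Con libraries and at 12.2, 12.4 and 13.0 FPKM in the Ad-PDK4 libraries. The Ad-PDK4 libraries were close to each other and all above the controls. The mean rose from 7.13 ± 0.675 to 12.5 ± 0.384 FPKM (SD, n = 3), a factor of 1.76, and the interval of the log2 difference was 0.63 to 0.99.

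**Figure D3:**
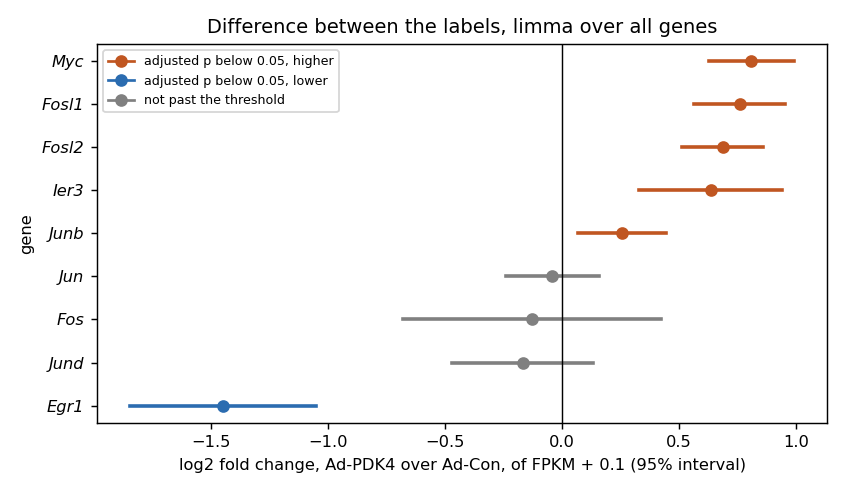
Points are log2 fold changes of FPKM + 0.1 for the 9 genes tested, Ad-PDK4 over Ad-Con, and lines are their intervals from limma. Egr1 lies at -1.45, Myc, Fosl1, Fosl2 and Ier3 at 0.63 to 0.81, and the intervals of Jun, Fos and Jund cross 0.

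FPKM is scaled by length, so the levels of different genes can be ranked, but these ranks and the shares above depend on the length used. For Fosl2 it was 9680 bases, all annotated exons together, where the longest transcript has 6537. For Fosb these lengths were 6243 and 3782 bases. Fosl1 was scaled by 1707 bases, where its M21 exons cover 2033. Ranks with other lengths were not computed. Under Ad-Con the order of mean FPKM was Egr1, Junb, Jund, Ier3, Fosl2, Jun, Myc, Fosl1, Fos and Fosb. The ranges of Egr1 and Junb overlapped, as did those of Jund and Ier3 and those of Myc and Fosl1, so these neighbours were not separated by their spread. Under Ad-PDK4 the order was Junb, Ier3, Fosl2, Jund, Egr1, Myc, Fosl1, Jun, Fos and Fosb, with overlap between Ier3 and Fosl2, Fosl2 and Jund, and Myc and Fosl1. Egr1 went from rank 1 to rank 5 and Jun from rank 6 to rank 8, behind Myc and Fosl1.

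Within a group, the same library was often the highest or the lowest for several genes. Ad-PDK4 replicate 3 was the highest of its group in 6 genes (Fos, Fosb, Junb, Egr1, Ier3 and Myc) and Ad-PDK4 replicate 1 the lowest in 7 (those and Fosl2). In the Ad-Con group, replicate 3 was the highest in 6 genes (Fos, Jun, Junb, Egr1, Ier3 and Myc) and replicate 2 the lowest in 6. The spread was widest for Fos under Ad-PDK4, from 68.2% to 130.4% of the group mean, and narrowest for Myc under Ad-PDK4, from 97.7% to 103.5%. Libraries share their depth and handling across genes, so this is a description and no test was made of it.

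**Figure D4:**
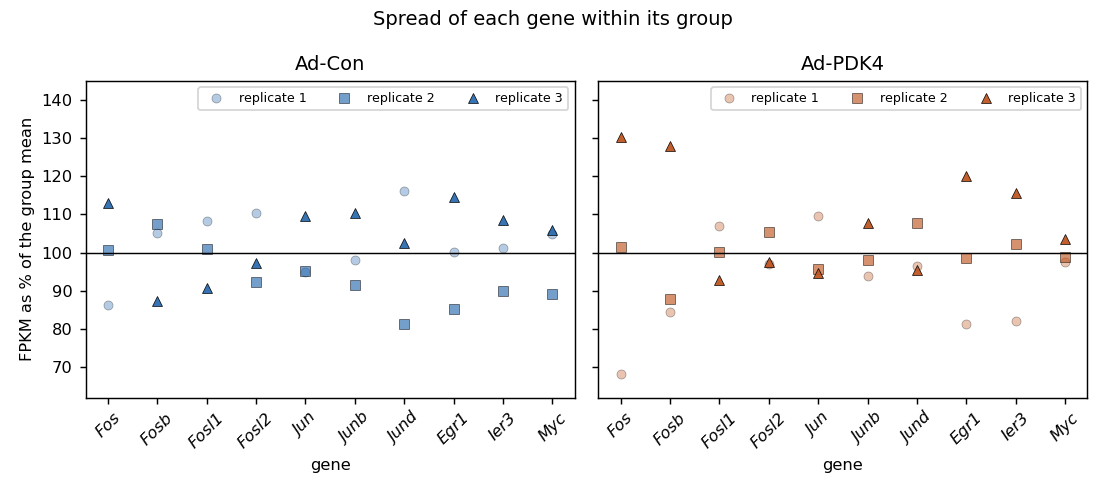
Each library's FPKM as a percent of its group's mean, for the 10 genes in the Ad-Con group (left) and the Ad-PDK4 group (right). Triangles (replicate 3) lie above 100% for Fos, Junb, Egr1, Ier3 and Myc in both panels, and Fos spans 68.2% to 130.4% on the right.

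Other genes of the pathway were followed through lists written from general knowledge. The shares over all genes given beside them were not matched to the expression levels of the lists. At a minimum mean of 5 FPKM, 2162 of 7731 genes were higher and 1881 lower, larger shares than those over all genes tested. The list called AP-1 partners here holds bZIP proteins of the ATF, MAF, BATF, JDP, NRF and BACH groups, many of which can pair with Fos or Jun, and the related repressor Nfil3. Of the 17 partners 13 were tested. Of these 7 were higher (53.8%, against 21.8% of all genes) and 4 lower (30.8%, against 20.8%). Their median log2 fold change was 0.23, against -0.0031 over all genes tested. Atf3, a stress-induced partner of Jun, rose from 1.42 ± 0.189 to 5.92 ± 0.516 FPKM (log2 fold change 1.99, adjusted p = 1.1e-05 in limma). Nfil3, a bZIP repressor, rose from 2.81 ± 0.291 to 10.0 ± 1.02 FPKM (log2 fold change 1.799, adjusted p = 9.9e-06 in limma). Maf, a bZIP factor, fell from 9.63 ± 0.119 to 3.77 ± 0.339 FPKM (log2 fold change -1.33, adjusted p = 9.5e-06 in limma). All 3 of these genes had groups without overlap.

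The list of immediate-early genes, those that need no new protein to be switched on, was called mainly upward. Of its 34 genes 30 were tested, with 13 higher (43.3%, against 21.8% of all genes). A further 6 were lower (20%, close to the 20.8% of all genes) and 11 not called, and the median was 0.24. Egr3, a close relative of Egr1, was at 1.12, 1.27 and 1.36 FPKM under Ad-Con and at 0.474, 0.220 and 0.236 FPKM under Ad-PDK4. The groups were separate and Egr3 fell (log2 fold change -1.77, adjusted p = 0.0022 in limma), on 17 to 109 reads per library. Klf10, a zinc-finger gene induced by TGF-beta, fell from 19.1 ± 0.877 to 7.22 ± 0.160 FPKM (log2 fold change -1.39, adjusted p = 1.5e-06 in limma). Trib1, a pseudokinase that directs protein degradation, rose from 3.31 ± 0.372 to 8.35 ± 0.227 FPKM (log2 fold change 1.32, adjusted p = 2.5e-05 in limma), and Atf3 belongs to this list as well.

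The kinases and ternary complex factors that carry growth and stress signals to the Fos, Jun and Egr1 promoters were all measured. Of 26 genes 11 were higher (42.3%, against 21.8% of all genes), 2 were lower (7.69%, against 20.8%) and 13 were not called. Their median was 0.04, and leaving out Ad-Con replicate 1 gave 0.0070, leaving out Ad-Con replicate 3 gave 0.077. Without Ad-PDK4 replicate 2, 4 were lower. Map2k1, which encodes the ERK-activating kinase MEK1, rose from 36.4 ± 0.870 to 66.6 ± 0.0612 FPKM (log2 fold change 0.87, adjusted p = 4.2e-06 in limma). Map3k8, which encodes the kinase TPL2, rose from 1.38 ± 0.157 to 2.60 ± 0.267 FPKM (log2 fold change 0.86, adjusted p = 0.0013 in limma). The called falls were those of Elk3, a ternary complex factor (log2 fold change -0.33, adjusted p = 0.0013 in limma), and Mapk3, which encodes ERK1 (log2 fold change -0.30, adjusted p = 0.0018 in limma). These are message levels and carry no measure of kinase activity or phosphorylation.

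Of 30 genes described as AP-1 targets 27 were tested. Of these 12 were higher (44.4%, against 21.8% of all genes), 6 lower (22.2%, close to the 20.8% of all genes) and 9 not called, with a median of 0.20. Ccl2, the monocyte chemokine, had 17.6, 19.9 and 16.97 FPKM under Ad-Con and 231.9, 247.3 and 344.8 FPKM under Ad-PDK4 (log2 fold change 3.89, adjusted p = 7e-06 in limma). The inflammatory cytokine Il6 had 4, 1 and 2 reads under Ad-Con and 114, 89 and 210 reads under Ad-PDK4, and its log2 fold change of 4.28 (adjusted p = 3.7e-05 in limma) depends on the pseudocount because the control level is so near 0. Nqo1, an antioxidant enzyme, fell from 9.77 ± 1.19 to 4.61 ± 0.254 FPKM (log2 fold change -1.06, adjusted p = 0.00011 in limma). The integrin subunit Itga2 fell from 1.19 ± 0.143 to 0.609 ± 0.0727 FPKM (log2 fold change -0.86, adjusted p = 0.0084 in limma). Many of these genes also answer to other factors, and Dcn of this list is among the fibroblast markers above.

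For Myc, its network of partners and antagonists held 18 genes, of which 16 were tested. Of these 6 were higher (37.5%, against 21.8% of all genes), 3 lower (18.8%, close to the 20.8% of all genes) and 7 not called, with a median of 0.0069. Only 1 was lower without Ad-Con replicate 1 or 3 or without Ad-PDK4 replicate 1 or 3, and the median was -0.02 without Ad-PDK4 replicate 2. Mycn, a paralog of Myc with the same DNA-binding partner, rose from 0.696 ± 0.0565 to 2.57 ± 0.245 FPKM (log2 fold change 1.75, adjusted p = 4.8e-05 in limma). Mxi1, which competes with Myc for MAX, fell from 10.7 ± 0.705 to 6.59 ± 0.217 FPKM (log2 fold change -0.69, adjusted p = 0.00015 in limma), and the antagonist Mnt fell by 0.33 on the log2 scale (adjusted p = 0.032 in limma). Mlxip, a glucose-sensing member of the network, rose (log2 fold change 0.42, adjusted p = 0.0097 in limma).

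MYC target genes, mostly of ribosome assembly and nucleotide or polyamine synthesis, had the highest median of the lists. Of 38 genes 37 were tested and Wdr74 was listed at 0 in every library. Of those tested 21 were higher (56.8%, against 21.8% of all genes), 4 lower (10.8%, against 20.8%) and 12 not called. The median was 0.39, and 2 were lower without Ad-Con replicate 1 or 3 or without Ad-PDK4 replicate 1. Odc1, the first enzyme of polyamine synthesis, rose from 12.4 ± 0.212 to 22.9 ± 1.06 FPKM (log2 fold change 0.88, adjusted p = 1.3e-05 in limma). Rrp12, a ribosome assembly factor, rose from 2.38 ± 0.237 to 4.92 ± 0.353 FPKM (log2 fold change 1.02, adjusted p = 0.00015 in limma). The cell cycle kinase gene Cdk4 fell from 133.4 ± 0.725 to 96.7 ± 1.19 FPKM (log2 fold change -0.46, adjusted p = 8e-05 in limma), and Dctpp1, a nucleotide-cleaning enzyme, fell by 0.73 (adjusted p = 0.00095 in limma).

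Because many early-response messages are short-lived, factors of mRNA decay were listed as well. Of 16 such genes, all tested, 7 were higher under the Ad-PDK4 label (43.8%) and 9 were not called, with a median of 0.18. Among all genes tested, 21.8% were higher and 20.8% lower. By limma 0 were lower, with 1 at an unadjusted p below 0.05, and limma-voom also called 0, but 1 was called without Ad-PDK4 replicate 1 and 1 after quantile normalization. At a minimum of 5 FPKM the higher calls numbered 4. Zc3h12a, which encodes the endonuclease regnase-1, rose from 1.67 ± 0.273 to 6.27 ± 1.03 FPKM (log2 fold change 1.85, adjusted p = 5.4e-05 in limma). Dcp2, the decapping enzyme, rose from 3.54 ± 0.214 to 7.35 ± 0.520 FPKM (log2 fold change 1.03, adjusted p = 5e-05 in limma). Zfp36, which encodes the ATTTA-binding factor tristetraprolin, was at 8.69, 7.73 and 12.0 FPKM under Ad-Con and 10.3, 12.4 and 12.5 FPKM under Ad-PDK4 and was not called (adjusted p = 0.16 in limma).

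**Figure D5:**
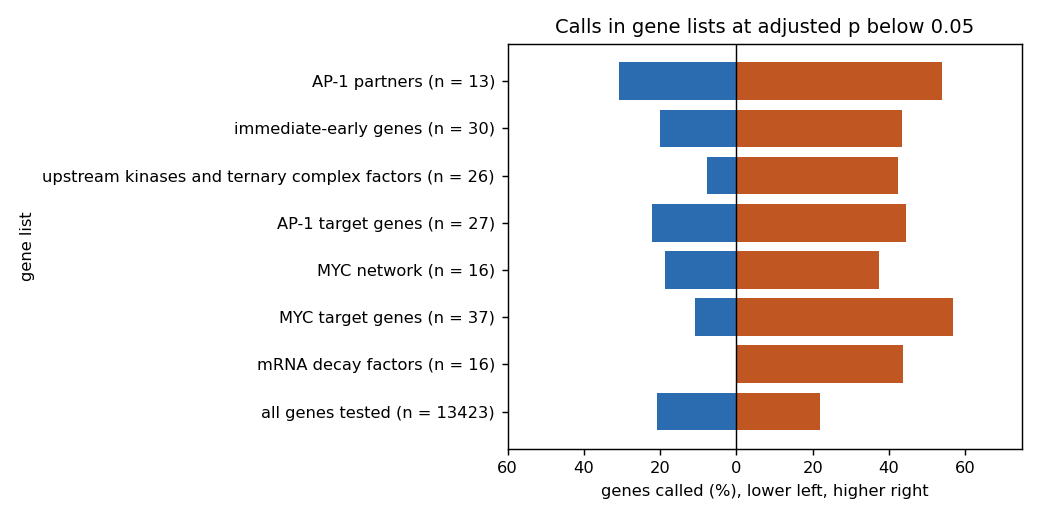
Bars give the percent of tested genes in each list called at a limma adjusted p below 0.05, lower under Ad-PDK4 to the left and higher to the right, with all 13423 genes tested as the lowest bar. Calls to the right outnumber calls to the left in each of the 7 lists, and among all genes 21.8% were higher and 20.8% lower.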

How the data were processed

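MASMCs (3 Ad-Con, 3 Ad-PDK4) were sequenced, and the labels name a SMARTER kit where the study's methods name NEBNext. The authors deposited 1 table of FPKM per gene and library. The submitters' processing notes name CASAVA 1.8, fastp, HISAT2 2.0.5, featureCounts 1.5.0-p3, DESeq2 1.20.0 and GRCm39, but 98.3% of the 54409 gene identifiers found in GENCODE M21 have the same coordinates there, so GRCm38 coordinates are used. The strand setting is not given in the sources used here. FPKM times gene length gave whole reads for 100% of values (within 0.01 reads), and the implied library sizes were already scaled by median of ratios.

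Groups came from the treatment labels and replicate numbers from the titles. log2(FPKM + 0.1) of the 13423 genes with a mean of at least 0.5 FPKM was compared between the groups with limma 3.58.1 (R 4.3.3), with trend and robust moderation and Benjamini-Hochberg adjustment over all of them. Every adjusted p is from this fit unless an alternative is named beside it, intervals are at the 95% level, and every fold change is on that scale, which understates low genes. The authors used DESeq2 on counts. The study describes 3 biological replicates per group, and p-values reflect the spread between these libraries only. Shares were compared by an exact permutation test. The other settings tried were pseudocounts of 1 and 0.01, no filter or a minimum of 5 FPKM, TPM, quantile normalization, moderation without trend and robust, a replicate block, limma-voom on recovered reads with TMM scaling, and leaving out each library. Named genes are the 10 genes, Pdk4, and the 2 largest called rises and falls in each list. A gene that this rule names is not reported here. Zfp36, Ccdc85b, Prdx2, Junos, Gm11175, the check markers and Dcn lie outside this rule and were named after their values were seen. The 10 genes and the lists were chosen with earlier results of these data known. Promoters and motifs came from RefSeq GRCm38.p6.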

Additional observations from a re-analysis of the deposited data

How the results depend on the processing

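The calls of Egr1, Fosl1, Fosl2, Ier3 and Myc held in all 15 alternatives, whereas Junb kept its call in 8. Leaving out single libraries gave 4 to 5 of the 10 genes higher and 1 to 2 lower, the latter with Jund without Ad-Con replicate 2. Among genes that were not called, Jun turned to 0.026 without Ad-Con replicate 3 and Fos to 0.12 without Ad-PDK4 replicate 1, in ranges of -0.11 to 0.026 and -0.34 to 0.12 over the libraries left out. As shares of recovered reads, the difference of Fos was -2.001 and that of Fosl1 0.41 percentage points, and leaving out libraries gave -6.97 to -4.30 and 1.21 to 3.23. Over all genes, 2314 to 3361 were higher and 2156 to 3132 lower, leaving aside the minimum of 5 FPKM, which gave 2162 and 1881. Of the calls, 58.0% were higher after rescaling to TPM and 44.7% after quantile normalization, against 51.1%. Quantile normalization turned the medians of the upstream kinases to -0.02 and of the MYC network to -0.02. Falls in the MYC network numbered 1 with no filter, and those among the kinases 5 with limma-voom. Over all genes tested, replicate numbers showed no pairing of the libraries (residual correlations of same-numbered libraries -0.0460, -0.0311 and -0.00129). Among the 10 genes, replicate 3 was the highest in both groups for Fos, Junb, Egr1, Ier3 and Myc. Pairing within these genes was not tested. With a replicate block the standard error fell for Fos, Fosl1, Junb, Egr1, Ier3 and Myc and rose for Fosl2, Jun and Jund. The replicate block gave 2759 genes higher and 2626 lower and 5 and 1 of the 10 genes, and changed no call among them. Where a value changed, the cause was not tested. Fosb rested on 31 to 57 reads per library, the fewest of the 10 genes.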

Other observations

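Many early-response messages are short-lived, and ATTTA elements in the 3′ UTR are known as docking sites of factors that hasten mRNA decay. In the longest annotated 3′ UTR (GENCODE, GRCm38) Ier3 held 5 such pentamers, or 8.16 per kb, a density reached by 1.74% of the 19934 genes with a 3′ UTR of at least 100 bases. Fos held 4 (4.91 per kb, 7.76% of genes), Myc 2 (4.29 per kb, 10.9%), Junb 2 (4.12 per kb, 11.9%) and Jun 4 (3.24 per kb, 19.4%). Jund, Fosl2, Egr1 and Fosl1 had 1.57 to 1.88 per kb and Fosb 0.434, against a median of 1.35 over all genes. The longer element TTATTTATT was present in Fos and Fosl2, and in 8.06% of genes. Genes that rose lay both among the densest (Ier3, Myc, Junb) and beside Egr1, which fell (Fosl1, Fosl2).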
